A study of Homo sapiens with 9 samples.

Results

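MALAT1 and NEAT1, a pair of neighbouring nuclear long noncoding RNAs on the long arm of chromosome 11, were examined in U251 cells, an established human glioblastoma line. They are 2 of the 20848 genes in the deposited count tables, and they were selected on a measured value, the large number of iCLIP sites of the RNA-binding protein Musashi1 (gene MSI1) that carry their names. The study asked how gene expression and splicing change when MSI1 is knocked down, and where MSI1 touches RNA. Its RNA-seq arm had 3 libraries of U251 cells with MSI1 knockdown and 3 control libraries, titled WT, of cells labelled wild type. Its iCLIP arm had 3 site lists from U251 cells also titled WT, made with a rabbit monoclonal antibody against MSI1. The 9 samples share the line, so every result is from 1 cell line, and the labels name neither the knockdown reagent nor any control reagent.

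Both RNAs stay in the nucleus. MALAT1 gathers at nuclear speckles, the bodies that store splicing factors, and its mature 3′ end is cut by RNase P and closed by a triple helix in place of a poly(A) tail. NEAT1 is made as a short polyadenylated form and a long form from the same start, and the long form is the scaffold of paraspeckles, around which proteins such as NONO and SFPQ assemble. Musashi proteins bind single-stranded RNA through RNA recognition motifs that prefer the letters UAG, written TAG in DNA, and iCLIP marks the nucleotide next to which the protein was crosslinked by ultraviolet light.

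In the files MALAT1 is a single exon of 8705 nucleotides on the plus strand, chr11:65021809-65030513 (hg18), and NEAT1 a single exon of 3733 nucleotides on the same strand, chr11:64946845-64950577. The NEAT1 interval therefore holds only the first part of the RNA, which the short and the long form share. Reference sequences were read from tables of a later build as a view of the letters of these RNAs, with no genome coordinate carried from one build to the other. RefSeq lists 2 starts for MALAT1, 1307 nucleotides apart, and the windows around them are shown because the first iCLIP site lies at nucleotide 1282 of the annotated interval. Each window has 250 bases before the start in lower case and the first 50 transcribed bases in capitals (RefSeq, GRCh38.p14, plus strand).
MALAT1 upstream start, chr11:65497488-65497787: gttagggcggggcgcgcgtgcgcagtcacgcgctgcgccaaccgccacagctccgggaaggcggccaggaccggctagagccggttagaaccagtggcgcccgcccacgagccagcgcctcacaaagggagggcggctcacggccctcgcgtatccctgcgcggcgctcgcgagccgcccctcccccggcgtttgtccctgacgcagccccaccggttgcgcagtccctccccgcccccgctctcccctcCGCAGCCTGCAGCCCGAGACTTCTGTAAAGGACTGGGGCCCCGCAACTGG
MALAT1 downstream start, chr11:65498795-65499094: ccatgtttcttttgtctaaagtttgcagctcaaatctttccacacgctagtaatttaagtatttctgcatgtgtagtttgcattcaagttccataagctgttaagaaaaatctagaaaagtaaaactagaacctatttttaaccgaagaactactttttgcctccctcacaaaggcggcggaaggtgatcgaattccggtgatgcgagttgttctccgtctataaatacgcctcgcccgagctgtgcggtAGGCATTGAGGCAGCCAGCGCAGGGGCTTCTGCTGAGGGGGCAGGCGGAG

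The word TAG, which cannot overlap itself, was counted on the transcribed strand of the GENCODE release 29 transcripts (GRCh38). The longest MALAT1 transcript, of 8708 nucleotides, held 132 TAG, or 15.16 per kb, with 59.7% A and T. A short NEAT1 transcript of 3441 nucleotides held 49 TAG, or 14.24 per kb, and the long one of 22743 nucleotides held 260, or 11.43 per kb. Over 12744 long noncoding transcripts of at least 1000 nucleotides the median was 9.16 per kb. The share of those transcripts with at least the density of each was 5.7% for MALAT1, 9.0% for short NEAT1 and 27.0% for long NEAT1. Among transcripts within 2 percentage points of the same A and T content these shares were 11.6%, 4.2% and 34.2%. The 100 nucleotides with the most TAG in the MALAT1 and the long NEAT1 transcript, 6 in each, show what such a stretch looks like, with each TAG in capitals. The NEAT1 one lies past the annotated interval in which its sites were counted.
MALAT1, nucleotides 1402 to 1501: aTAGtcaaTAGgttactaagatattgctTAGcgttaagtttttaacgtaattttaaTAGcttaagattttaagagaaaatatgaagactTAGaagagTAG
NEAT1 long form, nucleotides 3784 to 3883: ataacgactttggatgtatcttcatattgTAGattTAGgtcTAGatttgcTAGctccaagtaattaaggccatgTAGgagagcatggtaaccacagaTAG

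Gene counts summed to between 32919299 and 47277016 per RNA-seq library. Control replicate 3 stood apart on the first principal component of log2 expression, at 80.6, against −40.86 to 10.35 for the other 5 libraries. MSI1 had 134, 195 and 90 reads in knockdown replicates 1, 2 and 3, against 726, 688 and 244 in the control replicates, a log2 fold change of −1.97 (SE 0.42), with adjusted p = 0.0699 in edgeR and 0.00279 once the replicate number was a block. Of the line's markers, VIM was at 2442 ± 267 CPM (counts scaled to a common library size) in knockdown and 2579 ± 271 CPM in control cells, OLIG2 had no read in any of the 6 libraries, and SOX2, a neural stem cell factor, was the only marker of the line that edgeR called, at −0.76 on the log2 scale (adjusted p = 0.0432, edgeR). With the replicate block 3 of the 10 tested markers of the line were called lower (SOX2, EGFR and PDGFRA) and 2 higher (SOX9 and FABP7). The fit with that block called 10.3% of all tested genes lower and 7.04% higher. DESeq2 called SOX2 lower and FABP7 higher (log2 fold change 0.75 in edgeR). Of 14 measured markers of leukocytes, endothelium, neurons, oligodendrocytes and epithelium, 6 had enough reads to be tested and none was called by edgeR or DESeq2, with 1, SNAP25, at an unadjusted p under 0.05 and called higher with the replicate block. CD3E had no reads. KRT18, an epithelial marker, was at 173.8 ± 12.6 CPM in knockdown and 198.3 ± 20.7 CPM in control cells. SYT1, a neuronal marker, was at 24.2 ± 2.61 CPM in knockdown and 22.4 ± 4.79 CPM in control cells.

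MALAT1 fell with MSI1 knockdown, just under the threshold (adjusted p = 0.0462, edgeR). NEAT1, with all knockdown libraries below all controls, just missed it in the same fit of all 6 libraries without pairing (adjusted p = 0.0548, edgeR). The MALAT1 call was lost in 8 of the alternative runs described at the end. Across the table, 232 of 13856 tested genes (1.67%) were called at an adjusted p below 0.05 in edgeR, 125 (0.902%) lower and 107 (0.772%) higher in knockdown cells. MALAT1 was among the lower ones, and NEAT1 was not. DESeq2 called both lower, among 715 of 14156 genes (5.05%), 316 of them (2.23%) lower and 399 (2.82%) higher. In a bulk library less RNA per cell and fewer cells that make an RNA cannot be told apart, and a change is relative to the other genes of the library.

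MALAT1 had 79965, 70197 and 80337 reads in knockdown replicates 1, 2 and 3, against 125624, 125211 and 108623 in control replicates 1, 2 and 3. On the CPM scale these were 1878, 1841 and 2020 in knockdown cells, against 2777, 3219 and 3381 in control cells. Every knockdown library lay below every control library, and the gap between the nearest libraries of the groups exceeded the spread within the knockdown group. The means were 1913 ± 94.6 CPM in knockdown and 3126 ± 312.5 CPM in control cells (SD, n = 3 each), a log2 fold change of −0.71 (SE 0.13, adjusted p = 0.0462, edgeR quasi-likelihood). That is a level of 61.2% of control. Of the 13856 tested genes, 586 (4.23%) had a lower fold change than MALAT1. Without any 1 of 5 libraries (each knockdown replicate, control replicate 1 or control replicate 2) the adjusted p was between 0.113 and 0.301, and without control replicate 3 it was 0.0257 (log2 fold change −0.59).

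NEAT1 had 15245, 16921 and 18354 reads in knockdown replicates 1, 2 and 3, against 28947, 33392 and 25535 in the control replicates. These were 358, 444 and 462 CPM in knockdown cells, against 640, 859 and 795 CPM in control cells. The groups did not overlap here either. For comparison, 3163 tested genes (22.8%) had groups that did not overlap, 1954 of them (14.1%) with knockdown below control. The NEAT1 means were 421 ± 55.3 CPM in knockdown and 764 ± 112 CPM in control cells (SD, n = 3 each), a log2 fold change of −0.86 (SE 0.17) and a fitted level of 55.1% of control. Its adjusted p of 0.0548 (edgeR) missed the threshold of 0.05, with an unadjusted p of 0.00107, and 370 genes (2.67%) had a lower fold change. Blocked by replicate number, the log2 fold change was again −0.86 and the adjusted p 0.00223 (edgeR), in a fit that called 2398 genes (17.3%), 1422 of them (10.3%) lower and 976 (7.04%) higher in knockdown cells. Without control replicate 3 and with no block the adjusted p was 0.0144 (log2 fold change −0.77).

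**Figure D1:**
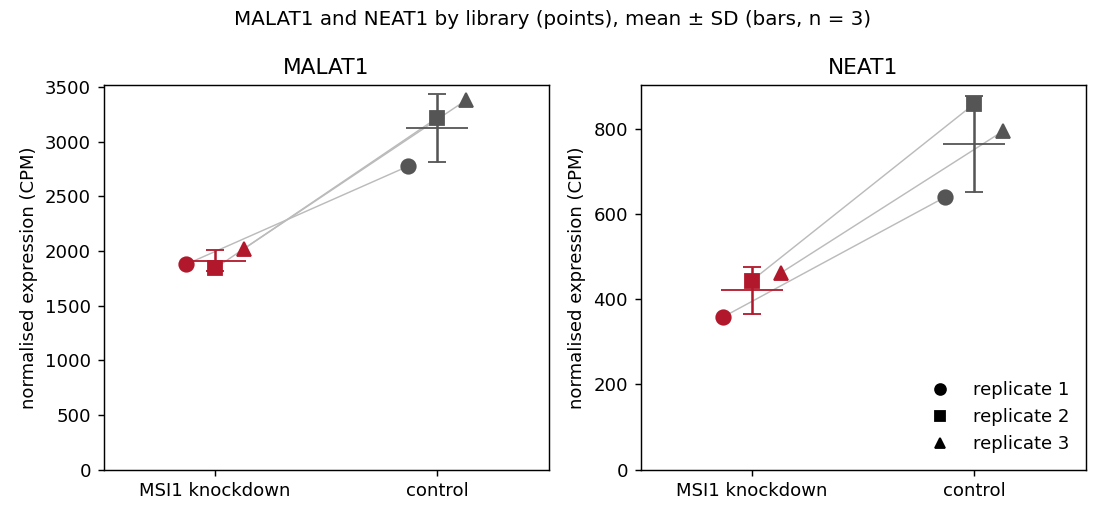
Normalised expression of MALAT1 and NEAT1 (CPM, y axes from 0) in each MSI1 knockdown library and each control library, with grey lines between libraries of the same replicate number, and mean ± SD beside the points (n = 3). All 3 knockdown libraries lie below all 3 control libraries for both RNAs.

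Pair by pair, each RNA was lower in knockdown than in control cells in 3 of 3 pairs. Groups that do not overlap give this count under any pairing. MALAT1 in knockdown cells was at 67.6%, 57.2% and 59.8% of the control library with the same number for replicates 1, 2 and 3. NEAT1 was at 56.0%, 51.7% and 58.1%. The smallest difference of MALAT1 was thus in pair 1, where NEAT1 had its middle one, and the largest of both was in pair 2.

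Per length, MALAT1 had the higher read level of the pair in both groups. Its level was 219.8 CPM per kb of exon in knockdown and 359 CPM per kb in control cells, places 222 and 120 of 13827 genes with at least 200 exonic nucleotides. NEAT1 was at 112.8 CPM per kb in knockdown and 204.8 CPM per kb in control cells, places 504 and 232. By read number alone, MALAT1 was 8th among all tested genes in control cells and NEAT1 was 140th. MALAT1 took between 0.188% and 0.207% of all gene counts in knockdown libraries and between 0.266% and 0.330% in control libraries, ranges that did not overlap. The NEAT1 shares were 0.0359% to 0.0474% in knockdown and 0.0612% to 0.0867% in control libraries. These are levels of reads. How RNA was selected for the libraries, which may favour RNA with or without a poly(A) tail, is not reported here.

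Whether the RNAs moved by unequal amounts was asked of their ratio within each library, which needs no scaling between libraries. NEAT1 counts were 19.1%, 24.1% and 22.9% of MALAT1 counts in knockdown replicates 1, 2 and 3, against 23.0%, 26.7% and 23.5% in control replicates 1, 2 and 3. The groups overlapped. The mean log2 ratio was −2.19 ± 0.18 in knockdown and −2.04 ± 0.11 in control libraries (SD, n = 3 each), a difference of −0.15 that an exact two-sided permutation test did not separate from 0 (p = 0.4). The smallest p that 20 arrangements of 3 against 3 allow is 0.1, so this design could not pass the threshold. Within pairs the ratio was lower in the knockdown library in 3 of 3, for which the exact paired p was 0.25, the smallest that 3 pairs allow. Gene and exon files held the same counts for each RNA in 6 of 6 libraries, and with a single exon each there was no exon usage to compare.

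Genes with the most similar pattern over the 6 libraries were ranked by Pearson's r of log2 CPM among 6001 genes with a mean of at least 5 on that scale. The 6 points fall into the study's groups, so the coefficients describe these libraries only. For MALAT1 the first 3 were SEPHS2, a selenophosphate synthetase (r = 0.997), SYNE2, a nuclear envelope spectrin repeat protein (r = 0.996), and CLASP1, a microtubule plus-end protein (r = 0.994). CLASP1 fell with knockdown, at 75.0 ± 4.27 CPM against 157.7 ± 13.6 CPM in control cells (SD, n = 3 each), a log2 fold change of −1.07 (adjusted p = 0.0149, edgeR). SEPHS2 and SYNE2 had log2 fold changes of −0.33 and −0.63 and were not called. For NEAT1 the first 3 were the cadherin FAT1 (r = 0.996), the angiomotin AMOT (r = 0.995) and the phospholipid transporter ATP9A (r = 0.995), none of them called. With the replicate block SYNE2, AMOT and ATP9A were called lower as well. NEAT1 was 133rd in likeness to MALAT1 (r = 0.966), and MALAT1 was 33rd in likeness to NEAT1.

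The genes on either side were read in the same fit. None of the upstream genes TIGD3, SLC25A45 and FRMD8 or the downstream gene SSSCA1 was called by edgeR or DESeq2, and all had an unadjusted p above 0.05 in edgeR. Their groups overlapped in each case. TIGD3 had a log2 fold change of −0.49, while SLC25A45 (0.36), FRMD8 (0.75) and SSSCA1 (0.03) had positive values. FRMD8, the gene just upstream of NEAT1, was at 22.9 ± 5.80 CPM in knockdown and 13.6 ± 5.75 CPM in control cells (SD, n = 3 each), and with the replicate block it rose (adjusted p = 0.0323, edgeR).

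Proteins that assemble with the pair were read as a group. Of 30 tested genes of paraspeckle proteins none was called by edgeR or DESeq2, and 1 had an unadjusted p under 0.05. Their median log2 fold change was −0.07, against −0.04 over all tested genes. NONO, a core paraspeckle protein on which NEAT1 depends, was at 904, 914 and 889 CPM in knockdown replicates and 832, 766 and 693 CPM in control replicates, groups that did not overlap (log2 fold change 0.24, adjusted p = 0.415, edgeR). Its partner SFPQ had a log2 fold change of −0.10 and PSPC1 one of −0.06. SS18L1, a chromatin factor listed among paraspeckle components (0.48, adjusted p = 0.152, edgeR), and NUDT21, a subunit of cleavage factor Im that acts on the NEAT1 poly(A) site (−0.50, adjusted p = 0.364, edgeR), were nearest to the threshold beside NONO. With the replicate block 2 members were called higher (SS18L1 and DAZAP1) and 1 lower (NUDT21). In that fit, which also gave the block counts of the lists below, 7.04% of all tested genes were called higher and 10.3% lower.

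Of 38 tested genes of nuclear speckle proteins none was called by edgeR or DESeq2, 2 had an unadjusted p under 0.05, and the median log2 fold change was −0.07. The splicing factor gene SFRS4, now SRSF4, was at 131, 126 and 121 CPM in knockdown replicates and 184.5, 176 and 164 CPM in control replicates (−0.47, adjusted p = 0.101, edgeR). CCNL1, a cyclin of speckles (−0.42, adjusted p = 0.185, edgeR), and BCLAF1, a speckle protein of RNA processing (−0.42, adjusted p = 0.402, edgeR), followed. These 3 of 38 are the members called lower with the replicate block, against 10.3% of all tested genes, and none was called higher. SON and SRRM2, the core scaffold proteins of speckles, had log2 fold changes of −0.07 and −0.11.

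Of 11 tested genes for the processing and capping of the MALAT1 3′ end none was called by edgeR, 3 had an unadjusted p under 0.05, and DESeq2 called 1, RPPH1. RPP14, a protein listed with RNase P, was at 24.8, 22.2 and 26.8 CPM in knockdown replicates and 36.4, 32.5 and 46.0 CPM in control replicates (log2 fold change −0.64, adjusted p = 0.144, edgeR). METT10D, now METTL16, a protein that binds the MALAT1 triple helix, differed by −0.32 on the log2 scale (adjusted p = 0.287, edgeR), and both were called lower with the replicate block, which also called RPPH1 higher. RPPH1, the RNA of RNase P, had 54, 82 and 51 reads in knockdown and 32, 31 and 9 in control replicates, groups that did not overlap (1.37, adjusted p = 0.181, edgeR, and 0.0485 in DESeq2). ELAC2, the RNase Z that cuts the other side of the tRNA-like piece, had a log2 fold change of −0.03.

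Of 24 tested genes of nuclear RNA decay none was called by edgeR or DESeq2, and none had an unadjusted p under 0.05. Their median log2 fold change was −0.12. The exosome subunit EXOSC2 (−0.27), the exosome adaptor ZCCHC8 (−0.32) and the noncanonical poly(A) polymerase PAPD5 (0.41) had the lowest adjusted p values, from 0.384 to 0.492 (edgeR). With the block PAPD5 was called higher and ZFC3H1 lower.

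Of 42 other long noncoding RNAs that could be tested none was called by edgeR, 3 had an unadjusted p under 0.05, DESeq2 called only RPPH1, and the median log2 fold change was 0.00. Nuclear KCNQ1OT1 (0.21) and MEG3 (0.22) and the abundant TUG1 (−0.28) and LOC647979, now NORAD (0.08), had adjusted p values between 0.537 and 0.874 (edgeR). LOC729082, now OIP5-AS1, was at 96.2, 103.4 and 112 CPM in knockdown replicates and 75.9, 71.6 and 85.5 CPM in control replicates (0.42, adjusted p = 0.193, edgeR). With the block it was called higher with TP53TG1 and RPPH1, and SNHG1 was called lower. The lowest value in any of the 5 lists was −0.64, and both MALAT1 and NEAT1 lay below it. The lists hold 143 tested genes, 2 of them in more than 1 list. The fit with the replicate block called 14 of the 143, against 17.3% of all tested genes. The share of all genes with an unadjusted p under 0.05 is not given here.

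**Figure D2:**
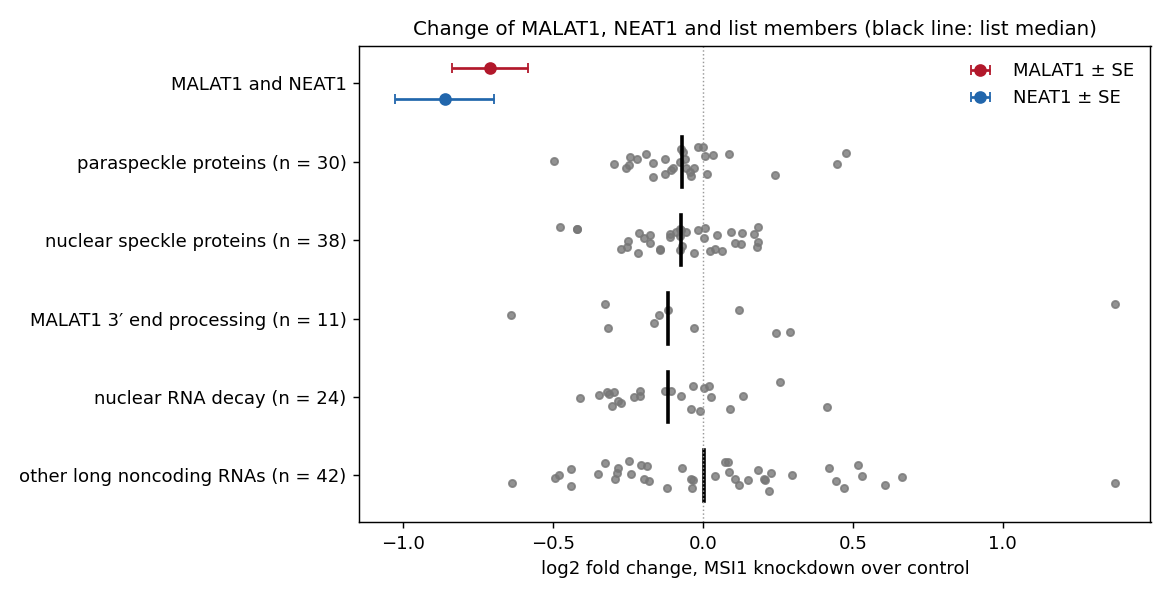
Log2 fold change, MSI1 knockdown over control, of MALAT1 and NEAT1 (coloured points with their standard errors) and of the tested members of 5 gene lists (grey points, vertical jitter only for legibility, black line at the list median, dotted line at 0). MALAT1 at −0.71 and NEAT1 at −0.86 lie to the left of each list member, the lowest of which is at −0.64, and the list medians lie between −0.12 and 0.00.

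The site lists of iCLIP replicates 1, 2 and 3 had 1746795, 145718 and 208722 single nucleotides, each with a p of the authors' own and no read number, so the depth behind a site is unknown. MALAT1 had 3619, 700 and 689 sites in lists 1, 2 and 3, which are 0.207%, 0.480% and 0.330% of each list. NEAT1 had 2098, 191 and 220, or 0.120%, 0.131% and 0.105%. These counts chose the RNAs and are given as a description with no test. All sites in both RNAs were on the plus strand, the strand of the genes. Per kb of exon, NEAT1 had 562, 51.2 and 58.9 sites and MALAT1 415.7, 80.4 and 79.1. Among 17714 genes with at least 1000 exonic nucleotides, NEAT1 was 1st, 5th and 9th by this density and MALAT1 3rd, 3rd and 5th in lists 1, 2 and 3. MALAT1 therefore had the denser sites in lists 2 and 3 and NEAT1 in list 1, where 56.2% of the NEAT1 nucleotides were listed.

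MALAT1 sites left the annotated 5′ end empty and covered the rest. The first site was at nucleotide 1282 (65023090, hg18) in list 1, nucleotide 1311 in list 2 and nucleotide 1294 in list 3, so 1281 nucleotides or more at the 5′ end held none in any list. The longest stretch with no site further inside was 150, 256 and 138 nucleotides. At the other end the last sites were at nucleotides 8571, 8576 and 8424, leaving 134, 129 and 281 nucleotides before the annotated 3′ end. The empty 5′ stretch is close in length to the 1307 nucleotides between the RefSeq starts printed above, which come from another build. Whether these lengths are linked was not tested. RNA-seq counts are deposited for the whole interval only, so reads of that stretch were not told apart from the rest.

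Within the covered part MALAT1 sites were sparser toward both ends than in the middle. In list 1 there were 33.3 sites per 100 nucleotides from the first site to nucleotide 1500, 23.8 between 1501 and 2000, 49.6 between 3001 and 3500, 66.4 between 5001 and 5500, 63.2 between 7001 and 7500 and 33.6 between 8001 and 8500. From the first site to nucleotide 1500, lists 2 and 3 each had 6.3 per 100 nucleotides, and between nucleotides 4501 and 5000 they had 16.2 and 15.4. Of 3 equal parts of the span between the first and last site, the middle one held 40.1%, 46.9% and 43.7% of the sites in lists 1, 2 and 3. Across 16 bins that hold the span, of 500 nucleotides but for a last one of 205, the profiles of the lists correlated at 0.86 to 0.94. This describes bins of 1 RNA and is not a test. The first and last of these bins reach past the span and had the lowest values, 14.6, 2.4 and 2.6 and 0.98, 0.49 and 0.0 per 100 nucleotides in lists 1, 2 and 3. They enter the coefficients.

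**Figure D3:**
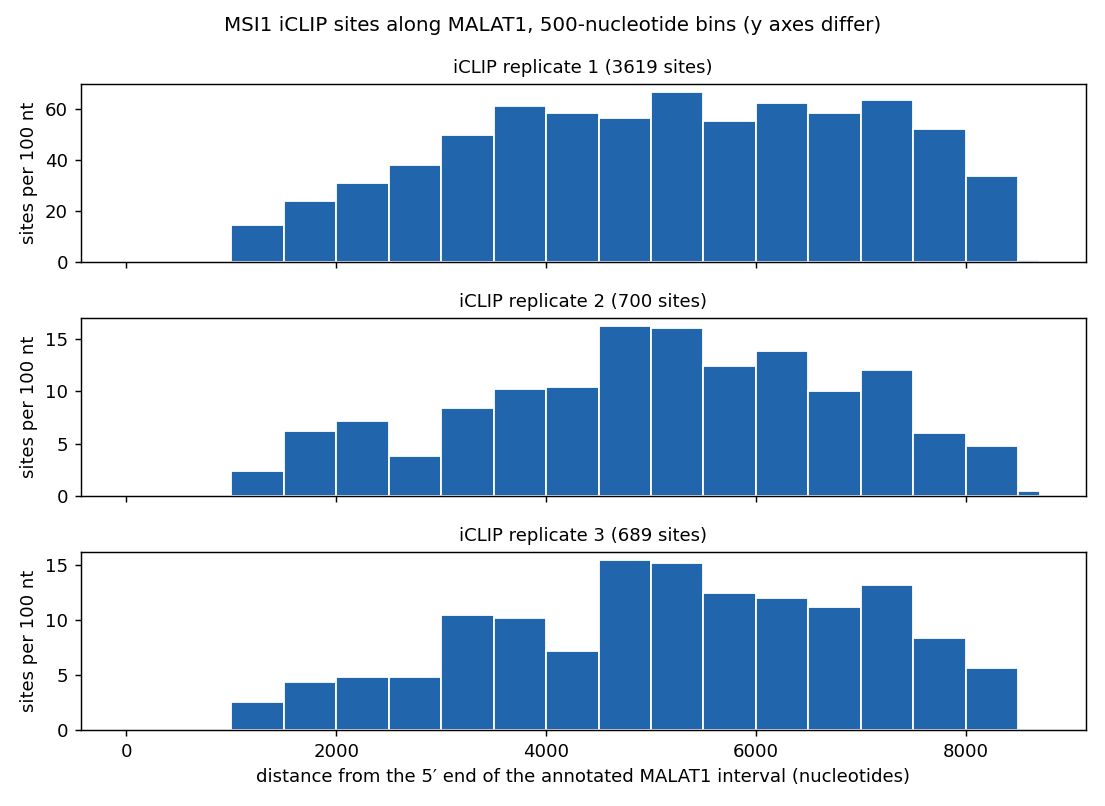
MSI1 iCLIP sites per 100 nucleotides in bins of 500 nucleotides along MALAT1, by distance from the annotated 5′ end, for the lists of replicates 1, 2 and 3 (y axes differ, last bin shorter). No list has a site in the first 1000 nucleotides or in the 5′ part of the bin that follows, and list 1 is highest between nucleotides 5001 and 5500 at 66.4 per 100 nucleotides.

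NEAT1 sites began at the annotated 5′ end and grew denser toward the 3′ end of the interval. The first sites were at nucleotides 2, 15 and 2, and the last was at nucleotide 3696 (64950540, hg18) in all 3 lists, 37 nucleotides before the annotated end. The density in list 1 was 37.8 per 100 nucleotides in the first 500 and 69.8 between nucleotides 3001 and 3500. Over the same bins it was 2.2 and 8.6 in list 2 and 1.4 and 12.6 in list 3. Of 3 equal parts of the span, the one at the 3′ end held 38.1%, 49.7% and 59.5% of the sites in lists 1, 2 and 3, and the one at the 5′ end 26.5%, 13.6% and 11.8%. Over 8 bins the profiles of lists 2 and 3 correlated at 0.88, and those of list 1 with lists 2 and 3 at 0.50 and 0.69.

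**Figure D4:**
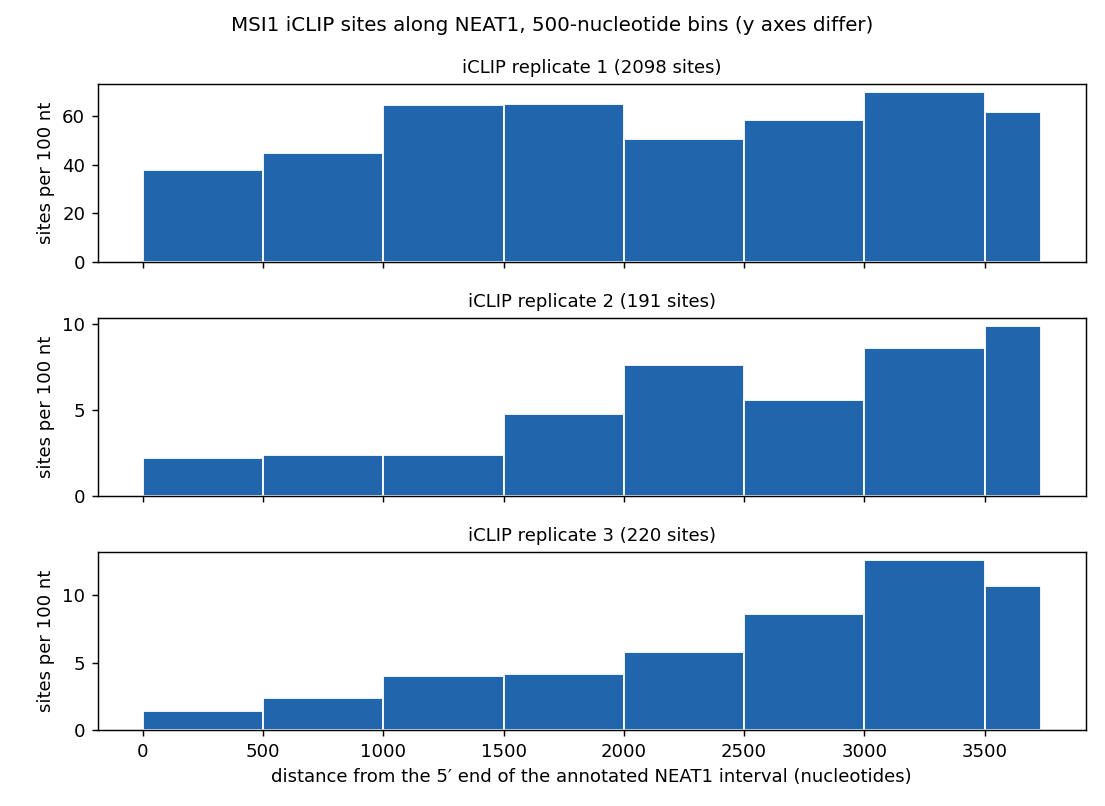
MSI1 iCLIP sites per 100 nucleotides in bins of 500 nucleotides along the annotated NEAT1 interval, by distance from its 5′ end, for the lists of replicates 1, 2 and 3 (y axes differ, last bin shorter). Lists 2 and 3 climb toward the 3′ end, and list 1 lies between 37.8 and 69.8 per 100 nucleotides throughout.

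In MALAT1 the stretch richest in TAG was not the one richest in sites. Nucleotides 1 to 1000 held 6 TAG and no site in any list. Nucleotides 1001 to 2500 held 40 TAG, or 26.7 per kb, beside 230.7, 52.7 and 39.3 sites per kb in lists 1, 2 and 3, the empty nucleotides before the first site included. Nucleotides 2501 to 8500 held 85 TAG, or 14.2 per kb, beside 545.2, 103.3 and 105.0 sites per kb. The TAG counts are from the transcript of 8708 nucleotides and the sites from the interval of 8705, each counted from its own start in its own build, so only these 3 stretches are set side by side, and they were chosen after their values were seen.

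List 1 covered so much of both RNAs that its overlap with the other lists has to be read against its coverage. Of the MALAT1 sites of lists 2 and 3, 79.9% and 80.8% were also in list 1, which held 49.6% of all nucleotides of the span. Of the NEAT1 sites of lists 2 and 3, 81.7% and 86.8% were in list 1, which held 56.8% of that span. Between the sparse lists, 26.6% of MALAT1 sites of list 2 were in list 3, which held 9.44% of the span, and 27.0% of those of list 3 were in list 2, which held 9.60%. For NEAT1 these shares were 17.3%, with list 3 on 5.95% of the span, and 15.0%, with list 2 on 5.17%.

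**Figure D5:**
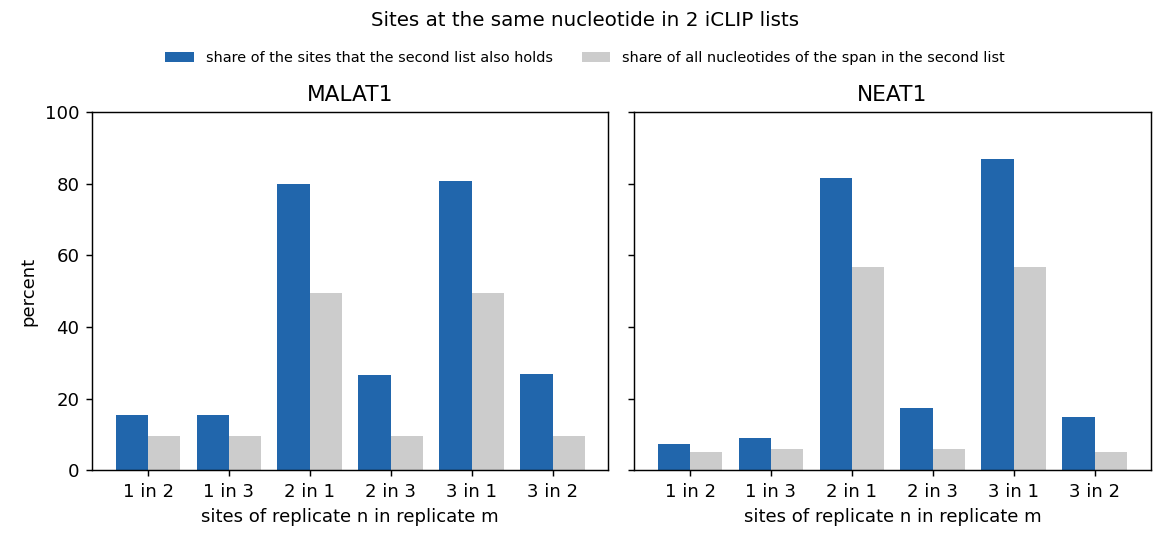
Percentage of the MALAT1 and NEAT1 sites of an iCLIP list that another list holds at the same nucleotide (blue), beside the percentage of all nucleotides of the span that the other list holds (grey), for the 6 ordered pairs of lists. Blue exceeds grey in each pair, for example 27.0% against 9.60% for MALAT1 sites of list 3 in list 2.

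In all 3 lists at the same nucleotide, MALAT1 had 180 sites and NEAT1 33, the 3rd and 9th largest numbers among 15431 genes with a site. SCD, a fatty acid desaturase, had 264, CD44, a hyaluronan receptor, 257 and the noncoding NCRNA00164 109. NCRNA00164 had 0, 1 and 0 RNA-seq reads in knockdown and 3, 1 and 0 in control replicates, too few to test. The MALAT1 sites were 4.97%, 25.7% and 26.1% of the RNA's sites in lists 1, 2 and 3, and those of NEAT1 1.57%, 17.3% and 15.0%. Over all genes, shared sites were 0.25%, 3.05% and 2.13% of the lists. The RNAs were chosen for their many sites, and dense sites coincide more often, so these shares and places are a description and no test. Per exonic kb MALAT1 had 20.7 shared sites and NEAT1 8.8. The shared MALAT1 sites lay between nucleotides 1481 and 8158, most densely with 28 sites from 5001 to 5500, and 51.7% were in the middle of the 3 parts of the span. Of the shared NEAT1 sites 60.6% were in the part at the 3′ end, with 12 from nucleotide 3001 to 3500. The longest run of shared nucleotides was 5, from 3248 to 3252 of MALAT1.

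Sites with a low p of the authors made up a larger share in both RNAs than in the lists as a whole, above all in list 1. In list 1, 28.7% of MALAT1 and 29.5% of NEAT1 sites had a p below 0.05, against 4.4% of the list. In lists 2 and 3 these shares were 6.43% and 6.39% for MALAT1 and 4.71% and 7.73% for NEAT1, against 2.77% and 3.74% of the lists. Shared sites had lower p values than the others in list 1, with medians of 0.008 and 0.23 in MALAT1 and 0.016 and 0.212 in NEAT1. The medians of shared and other MALAT1 sites were 0.207 and 0.275 in list 2 and both 0.3 in list 3. In list 2, 10.6% of shared and 5.0% of other MALAT1 sites had a p below 0.05, and in list 3 8.33% and 5.7%. In NEAT1 fewer of the shared than of the other sites had a p below 0.05 in lists 2 (3.03% and 5.06%) and 3 (6.06% and 8.02%). The medians of shared and other NEAT1 sites were 0.314 and 0.277 in list 2 and 0.3 and 0.331 in list 3.

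A p below 0.05 in at least 2 lists was given to 53 MALAT1 and 11 NEAT1 positions, and in all 3 lists to 3 and none. The 3 MALAT1 positions were nucleotide 3506 (65025314, hg18), with p values of 1.46e-09, 0.00525 and 0.0185 in the authors' lists 1, 2 and 3, nucleotide 5048 (65026856), with 0.000161, 0.0412 and 0.0325, and nucleotide 7420 (65029228), with 4.53e-15, 0.0462 and 0.00606. The last is the position with the lowest authors' p of MALAT1 in list 3 and shares the lowest of list 1. In NEAT1 the lowest authors' p was at nucleotide 412 in list 1 (7.51e-13), nucleotide 2324 in list 2 (0.0233) and nucleotide 2335 in list 3 (0.00914). Nucleotides 412 and 2335 were in all 3 lists and nucleotide 2324 in lists 1 and 2.

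Between the annotated end of NEAT1 and the start of MALAT1 lie 71231 nucleotides, which held 42 sites on either strand in list 1, none in list 2 and 2 in list 3. Of these, 41 and 2 were plus-strand sites named for the microRNA gene MIR612 (chr11:64968505-64968603, hg18). MIR612 is 99 nucleotides long and 17928 nucleotides past the annotated NEAT1 end. The sites covered 41.4% of its nucleotides in list 1, and 14 of them had an authors' p below 0.05, the lowest 0.00034. In the RefSeq annotation of GRCh38 the long NEAT1 interval, chr11:65422798-65445540, holds MIR612 983 nucleotides before its end. MIR612 had 2, 4 and 1 reads in knockdown and 4, 3 and 0 in control replicates, too few to test, and it was looked up after its sites were seen. The files assign sites almost entirely to annotated genes, with 74, 17 and 16 sites of lists 1, 2 and 3 outside any gene interval, so the rest of the long NEAT1 form cannot be read from them.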

How the data were processed

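For 6 RNA-seq libraries the authors deposited raw counts per gene (20848 genes) and per exon, and for 3 iCLIP samples lists of single-nucleotide sites, each with the authors' own p-value. Coordinates are on hg18, per the submitters' processing notes. Aligner, counter, strand setting and site caller: not given in the sources used here, so antisense reads cannot be told apart. The labels' protocol describes iCLIP for every sample and says that biological replicates were pooled, while the titles number 3 replicates per group. Nothing says that these came from separate cultures, so p-values cover the spread between these libraries only, and that spread may be technical.

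Gene counts were tested with edgeR 4.0.16 (R 4.3.3, glmQLFit and glmQLFTest, TMM, filterByExpr, 13856 genes kept, group only, 4 residual degrees of freedom), with Benjamini-Hochberg adjustment over the whole table and a threshold of 0.05. Both RNAs passed the filter. The edgeR code was tested on simulated data. Deviations from the group means of knockdown and control libraries with the same number in their titles correlated at 0.32, 0.73 and 0.75, over the limit of 0.1. The numbers were therefore treated as pairs in a second fit, with the replicate number as a block, while the main fit took no account of them. Values from a fit with this block (2 residual degrees of freedom) stand beside results whose call they change. The highest correlation of control replicate 1 was with knockdown replicate 2 (0.49). The other tool was DESeq2 1.42.0. Normalised values are edgeR's CPM with TMM factors, and log2 CPM uses a prior count of 2. Every pair of libraries of the same group differed by more than sampling noise (chi-square of at least 22.7 per gene).

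The pair and the gene lists were chosen with earlier results of these data known. Genes named are the pair, MSI1, the nearest 3 genes on each side, the top 3 members per list by adjusted p, the 3 most alike genes of each RNA and the 5 genes with the most sites in all 3 lists. Other named genes (SFPQ, PSPC1, DAZAP1, SON, SRRM2, ELAC2, ZFC3H1, SNHG1, KCNQ1OT1, MEG3, TUG1, LOC647979, MIR612 and markers outside the top 3) were chosen after their values were seen. Some items that this rule takes are not reported here. Positions are counted from 1. Sites were shared when nucleotide and strand matched in each list. All sites were used, whatever their p, unless stated.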

Additional observations from a re-analysis of the deposited data

How the results depend on the processing

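The direction of MALAT1 and NEAT1 held under every alternative run. MALAT1 kept its call with the replicate block and with DESeq2 and lost it with DESeq2 size factors in edgeR (log2 fold change −0.66, adjusted p = 0.0704), with no filter on low counts (−0.66, 0.07) and with exon count sums (−0.64, 0.065). NEAT1 gained a call with the replicate block (−0.86, 0.00223), with DESeq2 (−0.82, 0.0106) and without control replicate 3 (−0.77, 0.0144). Leaving out each library in turn gave −0.79 to −0.59 for MALAT1 and −0.97 to −0.69 for NEAT1, with adjusted p values of 0.0257 to 0.301 and 0.0144 to 0.304. The median of all genes moved by less than 0.1 under each scaling. The number of genes called, 232 in edgeR, was 2398 with the replicate block, 715 with DESeq2 and 0 (without knockdown replicate 1) to 1028 (without control replicate 3) when a library was left out. With DESeq2 size factors 56.0% of 191 calls were higher in knockdown cells, against 46.1% of 232. Calls within the 5 lists, 0 in edgeR, were 14 with the block, 1 with DESeq2 and 0 to 5 when a library was left out, the 5 without control replicate 3. The log2 ratio of NEAT1 to MALAT1 differed by −0.22 to −0.05 when a library was left out, and the paired exact test gave p = 0.25, the smallest that 3 pairs allow, so it could not change the call. The cause of these changes was not tested. Leaving out a library also lowers the number of samples.

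Sites in all 3 lists depended on the rule. For MALAT1 the number, 180, was 3 at an authors' p below 0.05, 0 below 0.01, 412 within 2 nucleotides, 528 within 5, and 186 to 559 when a list was left out. For NEAT1 the number, 33, was 0 at both limits of p, 85, 127, and 33 to 191. The alternatives for exon usage were not run, since each RNA has a single exon. Lists 2 and 3 are much shorter than list 1, which limits the sites that can be shared.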
